A study of Mus musculus with 15 samples.

Results

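Cytotoxic T lymphocytes (CTL) deprived of IL-2 for 24 h were set beside naïve CD8+ T cells, to ask which features of a naïve cell came back once IL-2 was gone and which features of an effector cell stayed. The comparison used 6 of the 15 libraries of the series, 3 of CTL without IL-2 and 3 of naïve cells, and 10619 of the 11836 genes measured in all. These 10619 genes carried the same name and the same Entrez identifier in both deposited tables, 1 for the freshly isolated and activated cells with 11262 genes and 1 for the CTL with 11211 genes. A further 18 shared names pointed to different identifiers in the 2 tables and were left out.

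All cells came from P14 mice, whose transgenic T cell receptor (TCR) recognises the LCMV glycoprotein peptide gp33–41. Naïve cells were taken from the lymph nodes of female mice aged 9 to 13 weeks, with 3 mice pooled per replicate, and were sorted as live TCRβ+ CD8+ cells by their surface markers, low CD44 among them, so Cd44 is no independent result. The CTL had been activated for 48 h and grown for another 4 days in 20 ng/ml IL-2, and on day 6 the cytokine was washed away and either withheld for 24 h (CTL without IL-2) or returned at 20 ng/ml (CTL in IL-2). For P14 CTL in general, the methods give gp33–41 at 100 ng/ml, IL-2 at 20 ng/ml and IL-12 at 2 ng/ml during the 48 h of activation. No sort, age or sex is stated for the CTL used here. The treatment labels of the CTL in IL-2 name IL2, IL3 and IL4 in replicates 1, 2 and 3, and those of all 6 CTL libraries start with the name of replicate 1, so titles, replicate numbers and the growth protocol decided the grouping. TCR activated cells, used only to sort genes by their response to activation, came from the same pools as the naïve cells. Their culture lasted 24 h in 20 ng/ml IL-2, with gp33–41 at 100 ng/ml and IL-12 at 2 ng/ml, and ended in a sort for live CD8+ cells.

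IL-2 signals through JAK kinases to STAT5 and also feeds PI3K and mTOR signalling, and it helps to maintain growth, glycolysis and the cytotoxic programme of CTL. Not every branch does so: the paper reports that blocking PI3K p110δ in CTL left their growth and their granzyme and perforin mRNA unaffected. Naïve T cells are small, out of cycle and recirculate through lymphoid organs, and they depend on IL-7 rather than IL-2. FOXO transcription factors, which AKT keeps out of the nucleus, drive many genes of the naïve state, among them those for the IL-7 receptor and the transcription factor KLF2.

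The 2 tables were normalised separately, and table, culture, tissue processing and sort all follow the group, so their effects cannot be told apart from that of the cell state. Levels of CTL and naïve cells were therefore compared as percentile ranks. Within each library the 10619 genes were ranked by FPKM (fragments scaled to exon length and library size) from 0 for the lowest to 100 for the highest. A gene was counted as higher or lower in CTL without IL-2 when the 3 libraries of each group did not overlap and the mean ranks differed by at least 20 points. By this rule 738 genes (6.95%) ranked higher and 457 (4.3%) ranked lower. Regardless of size, 3053 genes (28.8%) lay above every naïve library by rank and 4605 (43.4%) below. Ranks are a description with no p-value, and they compress large differences between abundant mRNA: when log2(FPKM + 0.1) was taken after scaling each library to the same median, 1572 genes were more than 2-fold higher and 803 more than 2-fold lower without overlap. Where a rank count given for a gene group differs by over 1.5 times from that on the scaled log2 measure, both are given.

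The libraries were alike in spread. Their summed FPKM ran from 438119 to 502972 and their median FPKM over the shared genes from 12.39 to 13.43 across the naïve, activated and CTL libraries. The sort and culture were checked against markers. All 14 general T cell genes, among them Cd3e and Cd8a, were listed in both tables, with summed FPKM of 6684 to 7180 in naïve cells, 4462 to 4784 in CTL without IL-2 and 3585 to 4007 in CTL in IL-2. The B cell markers summed to 21.4 to 27.9 in naïve cells, where 6 of 9 were listed, and to 11.3 to 20.9 in CTL without IL-2 and 4.58 to 7.41 in CTL in IL-2, where only Cd79b and Bank1 were. Of 13 myeloid and dendritic markers, 5 were listed for naïve cells with sums of 11.4 to 36.0. The CTL table listed 7 of them, with sums of 44.1 to 54.8 without IL-2 and 65.3 to 90.5 in IL-2. Lyz2, Csf1r, Adgre1 and Cd14, defining genes of macrophages and monocytes, were in neither table as analysed here. Of the 4 markers of helper T cells, 3 were listed in each table, with sums of 9.59 to 10.8 in naïve cells, 35.1 to 42.8 in CTL without IL-2 and 21.5 to 29.6 in CTL in IL-2. Single markers of other cells therefore moved with withdrawal, in both directions. At low levels, Itgam rose by 3.44 ± 0.21 on the log2 scale (adjusted p = 1.02e-06) to 3.92, 3.89 and 4.46 FPKM, Cd79b by 1.87 ± 0.30 (adjusted p = 0.000369) to 20.6, 15.7 and 10.8 and Cd4 by 2.29 ± 0.43 (adjusted p = 0.000993) to 1.92, 1.36 and 0.92. The myeloid marker Fcer1g fell by 2.30 ± 0.23 (adjusted p = 1.91e-05), from 33.3, 50.9 and 56.9 FPKM to 6.57, 11.35 and 10.53. Bank1 fell as well, to 0.309 times its level in IL-2. Their part in the withdrawal results was not tested. None of 5 erythroid markers was analysed here. Bpifa2, a secreted protein gene of the salivary gland, read 0.72, 76.3 and 0.17 FPKM in naïve replicates 1, 2 and 3, so replicate 2 stood apart for it.

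Without IL-2 the CTL transcriptome lay nearer to that of naïve cells than it did with IL-2. Across the shared genes, Spearman's rho between a CTL library without IL-2 and a naïve library was 0.850 to 0.868 over 9 pairs of libraries. Between CTL in IL-2 and naïve cells it was 0.763 to 0.782, and the pairs of the 2 comparisons did not overlap. Between CTL with and without IL-2 it was 0.861 to 0.905, a range that overlaps the first. These are correlations across genes, which are not independent, and the naïve libraries enter both comparisons. In bulk RNA, a change in the share of cells expressing a gene and a change of its mRNA per cell cannot be told apart.

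The direction of the shift was also described by the response of genes to activation, in libraries that had no CTL in them. The activated cells had been cultured in IL-2 and the naïve cells had not. Responses to IL-2 and to the TCR therefore cannot be told apart in these classes, which may hold genes that follow IL-2 itself. Among the shared genes, 2528 fell (23.8%) and 2508 rose (23.6%) when naïve cells were activated for 24 h, by limma at an adjusted p under 0.05 and a change of more than 2-fold. On IL-2 withdrawal, tested the same way within the CTL table, 1444 shared genes rose (13.6%) and 1402 fell (13.2%). Of the 2528 naïve-high genes, 1078 (42.6%) rose on withdrawal and 49 (1.94%) fell, with a median log2 change of 0.85. Of the 2508 genes induced by activation, 1075 (42.9%) fell and 53 (2.11%) rose, with a median of -0.87. Among the 5583 genes that activation did not change by this rule, 313 (5.61%) rose and 278 (4.98%) fell, with a median of -0.02. The plot of withdrawal changes by activation class shows the naïve-high genes shifted to the right and the induced genes to the left of the rest.

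**Figure D1:**
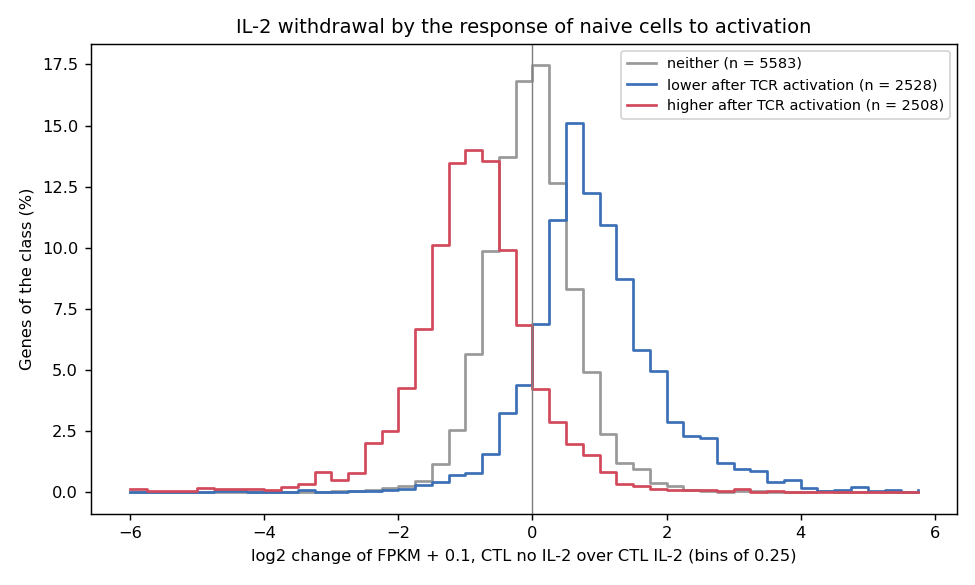
Distribution of the log2 change of FPKM + 0.1 between CTL without and with IL-2 (x axis, bins of 0.25) as a percentage of the genes in each class (y axis), for genes lower after TCR activation of naïve cells (blue, n = 2528), higher (red, n = 2508) or neither (grey, n = 5583), with changes beyond 6 placed in the end bins. The blue distribution has its median at 0.85, the red at -0.87 and the grey at -0.02.

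Genes were next sorted by where the deprived cells stood between the 2 reference states. A naïve feature was a gene ranking at least 20 points lower in CTL in IL-2 than in naïve cells without overlap (988 genes, 9.3%), and an effector feature was the reverse (1070 genes, 10.1%). Of the 988 naïve features, 437 (44.2%) stood within 10 points of the naïve rank, or past it, after IL-2 withdrawal, 308 (31.2%) lay between, and 243 (24.6%) stayed within 10 points of the rank in IL-2. Of the 1070 effector features, 300 (28.0%) had dropped to the naïve rank, 301 (28.1%) lay between, and 469 (43.8%) kept the rank of CTL in IL-2. These classes use the same libraries that define them and carry no test. A kept rank is not a kept level: Gzmb and Ifitm3 belong to the class that kept its rank, with log2 changes on withdrawal of -4.63 and -1.98.

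The genes that govern recirculation returned to ranks near those of naïve cells. S1pr1, the receptor that lets T cells leave lymph nodes (mm10, chr3:115710433-115715072), read 207, 235 and 270.3 FPKM in naïve cells, 10.3, 9.92 and 4.14 in CTL in IL-2 and 142, 127 and 96.5 without IL-2. The deprived CTL lay above every library in IL-2 and below every naïve library. In the CTL table the rise on withdrawal, given throughout with its standard error over 3 libraries a group, was 3.98 ± 0.31 on the log2 scale (adjusted p = 3.24e-06), in 3 of 3 same-numbered pairs.

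Ccr7, the receptor for the chemokines of lymph node T cell zones, rose by 1.48 ± 0.15 (adjusted p = 2.09e-05) from a mean rank of 78.0 to 94.1, against 97.3 in naïve cells. Itga4, which encodes the integrin α4 chain, went past the naïve level: it read 43.3, 37.5 and 46.9 FPKM in naïve cells, 16.1, 10.6 and 6.64 in IL-2 and 133, 141 and 116 without IL-2. Of 13 homing genes, 7 rose on withdrawal and 1 fell, where 13.6% and 13.2% of all shared genes did. The gene that fell was Cd69, whose product holds T cells in tissue by opposing S1PR1. Cd69 read 58.0, 52.4 and 45.0 FPKM in naïve cells and 53.0, 52.1 and 50.6 in CTL in IL-2, which overlapped, and 11.2, 11.6 and 12.2 without IL-2, below both groups, a log2 change of -2.14 ± 0.08 (adjusted p = 1.10e-07). Cd44 kept its effector level, with 64.7, 61.7 and 52.5 FPKM without IL-2 and 45.2, 47.7 and 43.8 in IL-2 against 7.10, 7.55 and 8.02 in the naïve cells that had been sorted for low CD44.

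Transcription factors of the naïve state returned to different extents. Tcf7, which encodes TCF-1, a factor of naïve and memory T cells (chr11:52252371-52283014), read 838, 912 and 1088 FPKM in naïve cells, 15.6, 20.1 and 10.3 in CTL in IL-2 and 564, 523 and 710.0 without IL-2. The deprived libraries all lay above those in IL-2 and below those of naïve cells, and the rise was 5.32 ± 0.21 on the log2 scale (adjusted p = 1.75e-07, 3 of 3 pairs). Lef1, its close relative, rose by 1.52 ± 0.15 (adjusted p = 1.30e-05) to a mean rank of 94.0 against 96.9 in naïve cells. Bach2, a repressor of effector genes, read 13.2, 10.3 and 14.1 FPKM in naïve cells and 8.15, 9.17 and 13.1 in CTL without IL-2, which overlapped, against 0.88, 0.78 and 1.15 in IL-2. Bcl6, a repressor linked to memory, showed the same pattern with 6.59, 6.48 and 9.47 FPKM in naïve cells, 5.04, 5.57 and 8.47 without IL-2 and 0.26, 0.40 and 0.52 in IL-2. For both genes, only replicate 3 without IL-2 lay within the naïve range, and the other libraries without IL-2 lay just below it. The differences of their mean ranks from naïve cells were -4.56 and -3.64 points.

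Others in this group rose but stopped short. Klf2, which encodes a factor that drives S1pr1 (chr8:72319033-72321656), read 193, 261 and 223 FPKM in naïve cells, 2.47, 2.51 and 2.30 in CTL in IL-2 and 45.0, 37.5 and 23.6 without IL-2. Its rise was 3.76 ± 0.20 on the log2 scale (adjusted p = 5.58e-07), to a mean rank of 77.9 against 97.8 in naïve cells. The related Klf3 rose by 2.95 ± 0.16 (adjusted p = 5.12e-07) but only to a rank of 35.3 against 91.4. Foxo1 read 33.8, 33.3 and 39.2 FPKM without IL-2, between 14.8, 14.2 and 17.01 in IL-2 and 79.0, 77.4 and 82.4 in naïve cells. Id3, an inhibitor of E proteins, read 119, 99.7 and 87.0 FPKM in naïve cells, 16.9, 16.4 and 15.2 in IL-2 and 24.9, 23.3 and 23.4 without IL-2, and its log2 change of 0.56 ± 0.08 did not reach the 2-fold limit. In all, 11 of 19 naïve transcription factors rose on withdrawal and none fell. Klf3, Id3 and Sox4 still ranked lower than in naïve cells and Myb ranked higher, and on the scaled log2 measure 5 were lower and 1 higher.

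**Figure D2:**
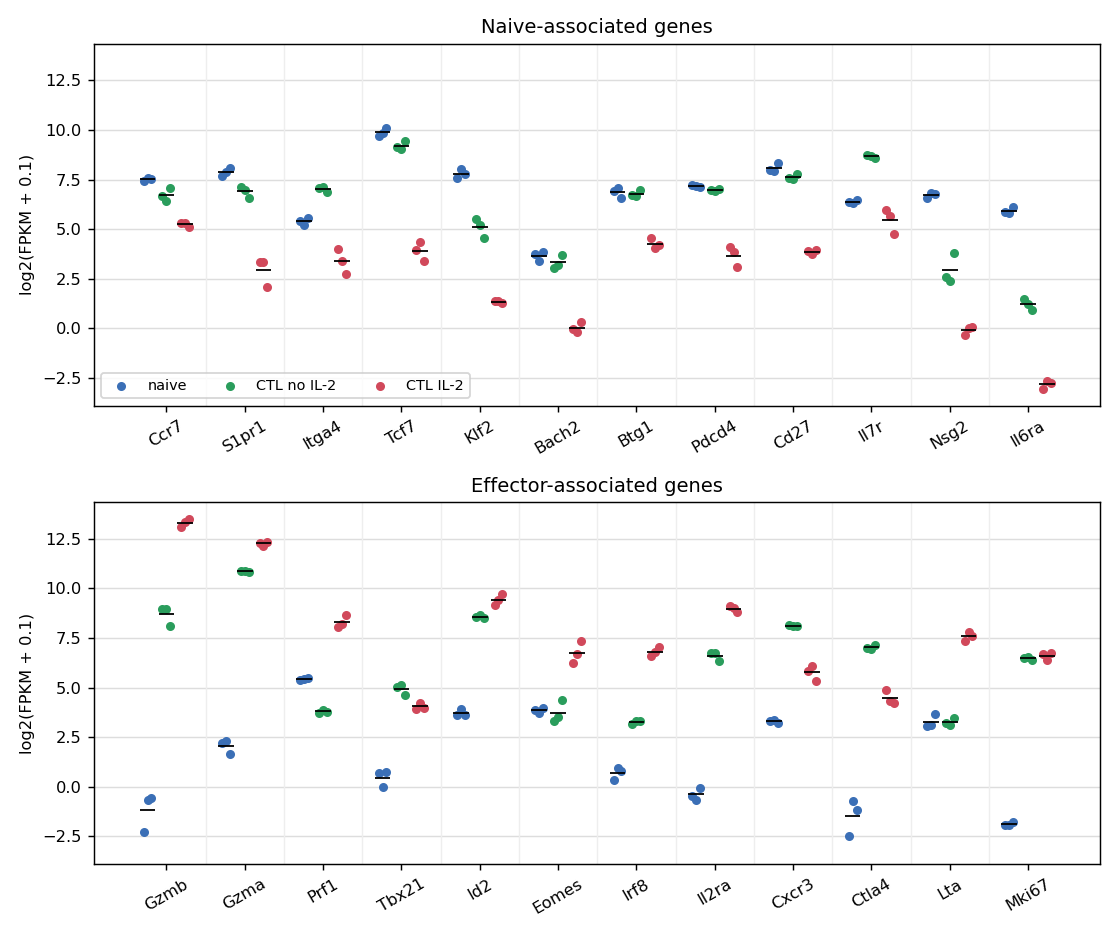
log2(FPKM + 0.1) of 12 naïve-associated genes (upper panel) and 12 effector-associated genes (lower panel) in each library, with a point per library and a bar at the mean of 3, for naïve cells (blue), CTL without IL-2 (green) and CTL in IL-2 (red). Green points for Btg1 lie within the range of the blue ones, as does that of replicate 3 for Bach2. Those for Mki67 and Gzma stay far above the blue ones, and those for Prf1 lie below them. The blue and green points come from tables normalised separately.

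Genes of quiescence largely returned to their naïve ranks. Of 22 genes that restrain growth or the cell cycle, 16 rose on withdrawal and none fell, and 7 of the 8 that were naïve features stood at the naïve rank. Btg1, an antiproliferative gene, read 122, 137 and 93.6 FPKM in naïve cells, 105, 101 and 128 in CTL without IL-2 and 23.5, 16.4 and 18.3 in IL-2. Pdcd4, which encodes a repressor of translation, read 149, 142 and 141 FPKM in naïve cells, 127, 122.6 and 131 without IL-2 and 17.1, 14.3 and 8.32 in IL-2. Without IL-2, Btg1 overlapped naïve cells and Pdcd4 lay just below them.

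Cdkn1b, which encodes the cyclin-dependent kinase inhibitor p27, read 55.9, 55.4 and 69.0 FPKM without IL-2, 44.0, 51.1 and 53.2 in naïve cells and 10.0, 11.5 and 9.55 in IL-2. Pik3ip1, which encodes an inhibitor of PI3K, read 85.7, 89.8 and 117 FPKM without IL-2, 55.9, 66.7 and 62.6 in naïve cells and 6.73, 6.63 and 3.73 in IL-2. Both read above every naïve library, but their scaled log2 differences from naïve cells, 0.38 and 0.75, were not called. The rise of Pik3ip1 on withdrawal, 4.11 ± 0.22 on the log2 scale (adjusted p = 4.90e-07), was the largest of the 22. Btg2 rose by 3.08 ± 0.13, Ypel3 by 3.46 ± 0.18 and Tsc22d3, a glucocorticoid-induced gene, by 3.19 ± 0.10, with differences in mean rank from naïve cells of -1.12, 0.168 and -1.96 points. On the scaled log2 measure 2 of the 22 were higher than in naïve cells and 1 lower, whereas by rank none was higher. Tob2 alone ranked lower than in naïve cells, at 52.0 against 72.2, a difference of -20.2 points that no longer met the rule when any of naïve replicate 1, naïve replicate 3, CTL without IL-2 replicate 1 or replicate 3 was left out.

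Genes written down as FOXO targets were counted on their own, although 13 of them belong to other groups here as well. Of the 20, 15 rose on withdrawal and none fell, with a median log2 change of 2.13 against -0.00 for all genes of the CTL table. Their median rank difference from naïve cells was -0.01 points without IL-2 and -20.2 points in IL-2. Of the 10 that were naïve features, 8 stood at the naïve rank. Ccng2, which encodes cyclin G2, and Bcl2l11, which encodes the death-inducing protein BIM, ranked above naïve cells and above CTL in IL-2. Ccng2 read 20.7, 20.1 and 14.4 FPKM in naïve cells, 10.1, 7.12 and 5.79 in IL-2 and 57.3, 52.1 and 55.5 without IL-2. Rictor ranked lower than in naïve cells, a count that became 0 when naïve replicate 3 was left out. On the scaled log2 measure 5 of the 20 were higher than in naïve cells and 3 lower, against 3 and 1 by rank.

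Since these genes moved together, their promoters were searched for the core forkhead motif GTAAACA on both strands, in RefSeq windows (GRCm38.p6) of 250 bases before to 50 after an annotated gene start. Of the 16 FOXO target genes with a window, 5 held the motif: Tcf7, Sesn1, Bcl2l11, Btg1 and Txnip. Among all 27025 genes with a window, 1095 (4.05%) held it. A match is only a description of the letters and no evidence of binding. The first 280 bases of 3 of these windows are shown on the gene's own strand. Tcf7 and Btg1 were chosen because they were among the genes nearest to their naïve rank. Txnip, which encodes an inhibitor of glucose uptake, was chosen because it read above every naïve library in FPKM. Capitals mark the motif or its reverse complement.
Tcf7, chr11:52282566-52282845, minus strand: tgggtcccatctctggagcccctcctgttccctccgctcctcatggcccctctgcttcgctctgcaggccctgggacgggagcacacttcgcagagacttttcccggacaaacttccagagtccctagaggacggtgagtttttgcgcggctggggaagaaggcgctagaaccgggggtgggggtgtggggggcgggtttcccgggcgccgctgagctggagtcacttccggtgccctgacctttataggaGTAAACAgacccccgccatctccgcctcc
Btg1, chr10:96616751-96617030, plus strand: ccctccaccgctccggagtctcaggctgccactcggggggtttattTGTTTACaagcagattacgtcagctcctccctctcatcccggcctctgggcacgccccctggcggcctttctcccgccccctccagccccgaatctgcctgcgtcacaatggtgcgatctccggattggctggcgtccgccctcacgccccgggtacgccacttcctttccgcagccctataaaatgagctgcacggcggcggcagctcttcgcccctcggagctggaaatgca
Txnip, chr3:96557707-96557986, plus strand: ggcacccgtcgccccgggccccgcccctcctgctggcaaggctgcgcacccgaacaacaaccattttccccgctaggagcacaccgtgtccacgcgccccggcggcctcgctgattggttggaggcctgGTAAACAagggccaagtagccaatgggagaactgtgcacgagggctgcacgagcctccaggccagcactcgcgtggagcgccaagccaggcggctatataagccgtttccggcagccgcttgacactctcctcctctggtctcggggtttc

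In Tcf7 the motif begins 1 base after the annotated start, whereas in Btg1 and Txnip it lies 204 and 121 bases before it. Txnip read 308, 333 and 292 FPKM in naïve cells, 147, 146 and 121 in CTL in IL-2 and 461, 454 and 474 without IL-2. The rise on withdrawal was 1.75 ± 0.09 on the log2 scale (adjusted p = 4.88e-07), whereas the scaled log2 difference from naïve cells, 0.68, was not called. Txnip overlaps another annotated gene, Gm15441, and whether the reads were counted by strand is not given in the sources used here.

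Receptors for survival cytokines split. Il7r, which encodes the IL-7 receptor chain on which naïve cells depend (chr15:9505788-9530176), read 81.9, 80.4 and 88.3 FPKM in naïve cells, 61.9, 50.1 and 26.6 in CTL in IL-2 and 430.0, 414 and 388 without IL-2. Every deprived library thus lay above every naïve library, and the rise was 3.23 ± 0.25 on the log2 scale (adjusted p = 3.38e-06). The IL-6 receptor did not follow. Il6ra read 58.9, 56.8 and 68.8 FPKM in naïve cells, 0.02, 0.06 and 0.05 in IL-2 and 2.73, 2.21 and 1.80 without IL-2. Il6st, which encodes the shared signalling chain gp130, read 92.8, 82.8 and 92.6 FPKM in naïve cells, 2.21, 1.76 and 2.65 in IL-2 and 4.37, 4.63 and 6.22 without IL-2. Both rose on withdrawal, by 4.02 ± 0.25 (adjusted p = 9.69e-07) and 1.17 ± 0.19 (adjusted p = 0.000406), and their mean ranks still differed from naïve cells, with differences of -75.3 and -67.1 points. The rise of Il6st was no longer called with a pseudocount of 1. Of 15 cytokine receptor genes of this group, 6 rose and none fell, where 13.6% and 13.2% of all shared genes did. Against naïve cells 1 ranked higher and 3 lower (3 and 5 on the scaled log2 measure), where 6.95% and 4.3% of all shared genes did by rank. The 1 higher lay near that share.

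Other surface and signalling genes of naïve cells mostly rose without reaching their naïve rank. Of 23 such genes, 18 rose on withdrawal and 1 fell, where 13.6% and 13.2% of all shared genes did. Yet 8 still ranked lower than in naïve cells and 1 higher (9 and 3 on the scaled log2 measure), where 4.3% and 6.95% of all shared genes did by rank. Cd27, a costimulatory receptor, came close to its naïve level: it read 253, 249 and 329 FPKM in naïve cells, 193, 188 and 222 without IL-2 and 14.9, 13.3 and 15.2 in IL-2. Nsg2, an abundant mRNA of naïve T cells, did not: it read 95.8, 115 and 108 FPKM in naïve cells, 6.04, 5.17 and 13.8 without IL-2 and 0.70, 0.91 and 0.95 in IL-2. Amigo2, which encodes an adhesion protein, read 11.2, 11.6 and 12.6 FPKM in naïve cells, 0.51, 0.39 and 0.41 without IL-2 and 0.02, 0.06 and 0.05 in IL-2. Nsg2 and Amigo2 therefore lay far below every naïve library. Itgae, which encodes the CD103 chain of the receptor for E-cadherin, stopped midway at 11.4, 11.2 and 12.5 FPKM between 1.68, 1.16 and 0.74 in IL-2 and 60.9, 63.1 and 61.6 in naïve cells.

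The genes that ranked furthest below naïve cells, among those with a mean of at least 1 FPKM in naïve cells, were Fos, Dtx1, Slc16a5, Il6ra, Cxxc5, Il6st, Tox, Timp2, Trib2 and Scg5. Fos, an immediate early gene, read 52.5, 170.2 and 37.0 FPKM in naïve cells and 0.16, 0.12 and 0.19 in CTL without IL-2, with naïve replicate 2 far above the other two. Dtx1, a Notch pathway gene, read 55.0, 51.3 and 80.3 FPKM in naïve cells and 0.72, 0.66 and 0.66 without IL-2. Tox, a factor of T cell development and exhaustion, read 29.4, 37.3 and 40.7 FPKM in naïve cells, 1.92, 1.30 and 2.29 without IL-2 and 1.52, 2.71 and 1.81 in IL-2. For Dtx1, Slc16a5, Cxxc5 and Tox, IL-2 withdrawal made no called difference, with log2 changes of 0.46 ± 0.25, 0.41 ± 0.25, 0.77 ± 0.40 and -0.12 ± 0.26 (adjusted p = 0.123, 0.158, 0.105 and 0.687). From CTL in IL-2 to CTL without IL-2, Fos fell by 3.29 ± 0.30 (adjusted p = 9.63e-06).

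Interferon-stimulated genes that ranked lower in CTL in IL-2 than in naïve cells were in part not restored. Of 29, 10 were such naïve features, and 6 of these kept the rank of CTL in IL-2. Among all 29, 8 ranked lower than in naïve cells and 4 higher, where 4.3% and 6.95% of all shared genes did, and 17 had no call. Ifit3 read 21.2, 22.02 and 14.8 FPKM in naïve cells, 0.24, 0.09 and 0.29 in IL-2 and 1.72, 1.51 and 2.09 without IL-2, so it rose by 2.66 ± 0.29 (adjusted p = 3.21e-05) but stayed 49.7 points below the naïve rank. Usp18, which encodes an enzyme that removes ISG15 from proteins, fell by 2.24 ± 0.29 (adjusted p = 9.36e-05), from 5.37, 6.62 and 10.4 FPKM to 0.97, 1.47 and 2.07, against 17.6, 15.3 and 11.7 in naïve cells. On withdrawal, 4 of the 29 rose and 6 fell, where 13.6% and 13.2% of all shared genes did, so the rises lay near that share.

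**Figure D3:**
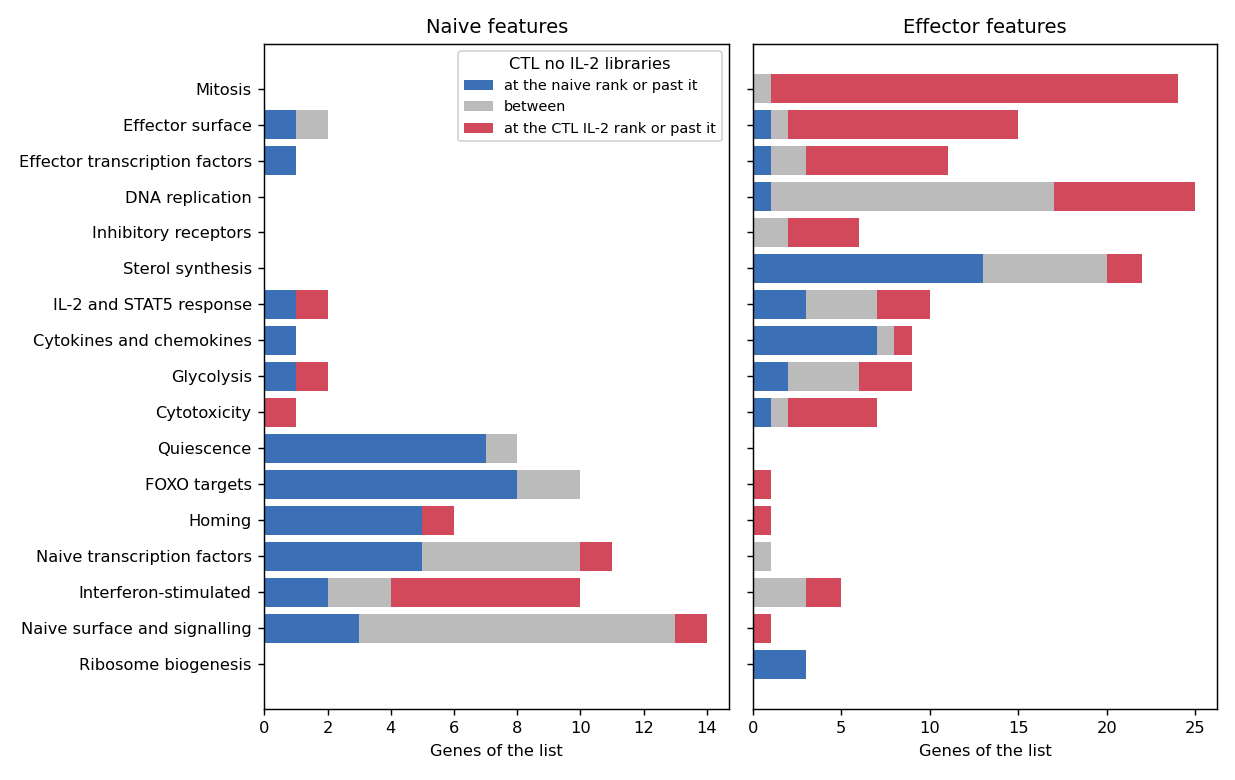
Number of naïve features (left) and effector features (right) in each gene group (y axis), split by whether CTL without IL-2 stood within 10 rank points of naïve cells or past them (blue), between (grey), or within 10 points of CTL in IL-2 or past them (red). Quiescence and FOXO target genes are mostly blue on the left, and 23 of 24 mitosis genes are red on the right.

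Effector genes that track IL-2 signalling went down. Of 20 genes written down as IL-2 and STAT5 response genes, 13 fell on withdrawal and none rose. Cish, which encodes a STAT5-induced inhibitor of cytokine signalling, read 2.14, 1.59 and 1.85 FPKM in naïve cells, 199, 242 and 218 in CTL in IL-2 and 20.7, 21.5 and 16.3 without IL-2, a log2 change of -3.50 ± 0.12 (adjusted p = 7.87e-08). Its deprived libraries lay below those in IL-2 but above every naïve library. Il2ra, which encodes the IL-2 receptor α chain, fell by 2.37 ± 0.12 (adjusted p = 4.72e-07) and still read 108, 106 and 82.1 FPKM without IL-2, against 554, 524 and 445 in IL-2 and 0.63, 0.54 and 0.87 in naïve cells. Socs1, another inhibitor, came down to overlap the naïve range, with 18.1, 20.3 and 25.8 FPKM without IL-2, 15.4, 16.2 and 21.03 in naïve cells and 80.1, 98.7 and 73.5 in IL-2. Against naïve cells 6 of the 20 ranked higher and 1, Socs3, lower (9 and 1 on the scaled log2 measure). By rank, 6.95% and 4.3% of all shared genes did, so the 1 lower lay near that share.

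The spaced STAT motif TTCNNNGAA was found in 2 of the 15 genes of this group with a promoter window, Cish and Socs3, and in 2582 of all 27025 genes (9.55%). The Cish window is shown because it held 2 matches, in capitals, at the gene start and 11 bases after it.
Cish, chr9:107296409-107296688, plus strand: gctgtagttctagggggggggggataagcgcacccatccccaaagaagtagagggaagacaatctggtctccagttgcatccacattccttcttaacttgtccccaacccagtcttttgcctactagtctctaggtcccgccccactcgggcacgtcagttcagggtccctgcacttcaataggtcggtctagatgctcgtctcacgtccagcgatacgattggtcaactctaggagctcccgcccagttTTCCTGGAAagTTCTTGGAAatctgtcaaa

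Most induced cytokine mRNA returned near to the naïve rank. Of 16 cytokine and chemokine genes, 11 fell on withdrawal and 3 rose, where 13.2% and 13.6% of all shared genes did. Of the 9 that were effector features, 7 stood at the naïve rank. Ifng read 0.13, 0.06 and 0.07 FPKM in naïve cells, 16.3, 18.8 and 28.9 in CTL in IL-2 and 0.81, 0.97 and 0.51 without IL-2. Lta, which encodes lymphotoxin α, read 8.24, 8.64 and 12.5 FPKM in naïve cells and 9.32, 8.62 and 11.1 without IL-2, which overlapped, against 165, 226 and 195 in IL-2. Il10 was listed at 0 in the 3 naïve libraries and read 66.9, 69.7 and 100.2 FPKM in IL-2 and 0.25, 0.39 and 0.16 without IL-2, a log2 change of -7.78 ± 0.24 (adjusted p = 6.07e-08). Il24 fell by 7.24 ± 0.26 (adjusted p = 1.11e-07).

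Ccl5, a chemokine gene of effector and memory cells, went the other way. It read 3.19, 3.80 and 1.69 FPKM in naïve cells, 106, 97.6 and 49.9 in IL-2 and 1586, 1724 and 1654 without IL-2, a rise of 4.36 ± 0.24 (adjusted p = 5.67e-07, 3 of 3 pairs). Its deprived libraries were thus above both other groups. Several cytokines stayed above the near-absent naïve level in fold terms, since 9 of the 16 were higher than in naïve cells on the scaled log2 measure, against 1 by rank.

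Genes of the killing machinery parted ways. Gzmb, which encodes granzyme B (chr14:56258838-56262260), read 8739.6, 10436 and 11655 FPKM in CTL in IL-2, 499, 507 and 276 without IL-2 and 0.11, 0.53 and 0.58 in naïve cells. The log2 change of -4.63 ± 0.22 (adjusted p = 3.57e-07) left it far above naïve cells, at a mean rank of 98.6 against 5.96. Prf1, which encodes perforin (chr10:61297833-61304680), fell by 4.51 ± 0.13 (adjusted p = 6.07e-08) from 268, 298 and 399 FPKM to 13.3, 14.6 and 13.7. Naïve cells read 42.1, 43.2 and 45.4 FPKM, so perforin mRNA ended below the naïve level, with a difference of -29.7 rank points and of -1.54 on the scaled log2 measure. The 2 partners of the same granule pathway therefore stood on opposite sides of naïve cells.

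Gzma, which encodes granzyme A, fell by 1.41 ± 0.11 (adjusted p = 2.93e-06) and remained among the most abundant mRNA, with 1894, 1874 and 1804 FPKM without IL-2 against 4.56, 4.85 and 3.07 in naïve cells. Fasl, which encodes the death ligand FASL, was listed at 0 in naïve cells and read 19.6, 20.3 and 27.0 FPKM in IL-2 and 13.6, 14.2 and 22.4 without IL-2, with no called change (log2 -0.43 ± 0.19, adjusted p = 0.0699). Serpinb9, which encodes an inhibitor of granzyme B, fell by 3.06 ± 0.17 (adjusted p = 5.58e-07) from 57.9, 54.5 and 89.7 FPKM to 7.83, 7.86 and 7.71, just below the 11.2, 8.55 and 10.0 of naïve cells. Of 19 cytotoxicity genes in both tables, 8 fell and 1, the cathepsin gene Ctsw, rose on withdrawal, where 13.2% and 13.6% of all shared genes did. Against naïve cells 5 ranked higher and 2 lower, where 6.95% and 4.3% of all shared genes did. The count of 1 that rose became 2 when CTL without IL-2 replicate 1 or any replicate of CTL in IL-2 was left out. Gzmd, Gzme, Gzmf and Gzmg were listed only in the CTL table, where they fell by 2.43, 2.87, 2.15 and 1.67 on the log2 scale. These granzymes are close copies of one another, and reads could have been split between them.

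Effector transcription factors mostly stayed above naïve cells, although 5 of 19 fell on withdrawal and 3 rose. Of all shared genes, 13.2% fell and 13.6% rose, so the rises lay near that share, and 6.95% ranked higher and 4.3% lower than in naïve cells. Of the 19, 11 ranked higher than in naïve cells and none lower, and 8 of the 11 effector features among them kept the rank of CTL in IL-2. Tbx21, which encodes T-bet, a driver of effector genes, read 1.51, 0.88 and 1.57 FPKM in naïve cells, 15.2, 18.7 and 15.8 in IL-2 and 33.1, 35.4 and 24.2 without IL-2. Its rise on withdrawal, 1.84-fold, did not reach the 2-fold limit. Id2, which encodes an inhibitor of E proteins that favours effector cells, read 12.2, 15.0 and 12.3 FPKM in naïve cells, 575, 693 and 835 in IL-2 and 379, 399 and 362 without IL-2. Bhlhe40, Nfil3, Prdm1, Batf3, Irf4 and Maf likewise ranked 26.5 to 84.9 points above naïve cells. Of these, Bhlhe40 fell by 1.31 ± 0.13 (adjusted p = 1.60e-05) on withdrawal, from 132, 170.2 and 189 FPKM to 59.6, 71.0 and 65.3, against 0.12, 0.41 and 0.26 in naïve cells.

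Other factors changed with the cytokine. Eomes, a relative of T-bet, read 14.7, 12.9 and 15.8 FPKM in naïve cells and 9.97, 11.3 and 20.8 without IL-2, which overlapped, against 75.8, 104 and 163 in IL-2, a log2 change of -3.02 ± 0.31 (adjusted p = 1.87e-05). Irf8 fell by 3.55 ± 0.12 (adjusted p = 7.87e-08), from 96.0, 111 and 134 FPKM to 8.95, 10.0 and 9.73, and stayed above the 1.17, 1.82 and 1.65 of naïve cells. Myc, which encodes a driver of growth, fell by 2.31 ± 0.16 (adjusted p = 1.64e-06) to 43.5, 44.8 and 38.8 FPKM. Naïve libraries read 61.9, 62.4 and 87.5, but the scaled log2 difference of Myc from naïve cells, -0.61, was not called. Rora, which encodes a nuclear receptor, rose by 2.41 ± 0.17 (adjusted p = 2.00e-06) to 10.97, 10.8 and 10.1 FPKM, against 2.53, 1.75 and 1.60 in IL-2 and 1.45, 1.59 and 2.48 in naïve cells.

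Receptors that guide effector cells to tissue also stayed above naïve cells. Of 24 effector surface genes, 5 rose and 5 fell on withdrawal, where 13.6% and 13.2% of all shared genes did. Against naïve cells 14 ranked higher and 1 lower, where 6.95% and 4.3% of all shared genes did, so the 1 lower lay near that share. Of the 15 effector features, 13 kept the rank of CTL in IL-2. Ccr2, a receptor for inflammatory chemokines, read 0.06, 0.08 and 0.18 FPKM in naïve cells, 192, 139.7 and 144 in IL-2 and 328, 320.1 and 248 without IL-2. Cxcr3, a receptor for interferon-induced chemokines, rose by 2.36 ± 0.16 (adjusted p = 1.66e-06) to 282, 278 and 276 FPKM, against 57.7, 68.3 and 40.4 in IL-2 and 9.92, 10.1 and 9.29 in naïve cells. Deprived CTL thus carried the mRNA of both these receptors, at mean ranks of 98.1 and 98.0, together with that of the lymph node receptor Ccr7, at 94.1. Tnfrsf9, which encodes the costimulatory receptor 4-1BB, fell by 5.24 ± 0.15 (adjusted p = 6.07e-08) from 179, 196 and 265 FPKM to 4.96, 6.46 and 5.14, against 1.49, 1.55 and 1.47 in naïve cells. The others that fell were Il2ra, Il12rb1, Il12rb2 and Ly6c1, with Il12rb1 and Il12rb2, the chains of the IL-12 receptor, falling to 62.9, 73.8 and 54.4 FPKM and to 65.2, 75.2 and 88.0 FPKM, still above the 6.20, 5.31 and 6.60 and the 4.65, 3.73 and 3.77 of naïve cells.

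Inhibitory receptors differed among themselves. Ctla4, which encodes a competitor of CD28, read 0.08, 0.50 and 0.34 FPKM in naïve cells, 29.0, 19.8 and 18.6 in IL-2 and 127, 122 and 142 without IL-2, a rise of 2.56 ± 0.15 (adjusted p = 8.98e-07). Tigit rose by 1.34 ± 0.22 (adjusted p = 0.000467) to 104, 94.2 and 71.5 FPKM, against 1.28, 0.85 and 0.59 in naïve cells. Pdcd1, which encodes PD-1, fell by 1.47 ± 0.17 (adjusted p = 4.00e-05) to 3.55, 5.18 and 4.59 FPKM, between 13.2, 14.0 and 10.2 in IL-2 and 1.12, 0.81 and 1.02 in naïve cells. Of 11 in both tables, 4 rose and 2 fell on withdrawal, where 13.6% and 13.2% of all shared genes did. Against naïve cells 4 ranked higher (8 on the scaled log2 measure) and none lower, where 6.95% and 4.3% of all shared genes did by rank. Havcr2, which encodes TIM-3 and was listed only in the CTL table, fell by 2.54.

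Adhesion, calcium-binding and cytoskeletal genes of effector cells ranked high in both kinds of CTL. S100a4 read 5.09, 4.49 and 5.56 FPKM in naïve cells, 1468, 1419 and 1047 in IL-2 and 2134, 1974 and 1615 without IL-2. Lgals3, which encodes galectin-3, was listed at 0 in naïve cells and read 119.8, 150.2 and 106 FPKM without IL-2 after a log2 change of -1.12 ± 0.12 (adjusted p = 3.16e-05) from 251, 292 and 268. Of 17 such genes, 7 ranked higher than in naïve cells and none lower, and on the scaled log2 measure 14 were higher. The genes that ranked furthest above naïve cells, with a mean of at least 1 FPKM in the deprived CTL, included Fgl2, Ifitm2, Ccr2, Mt1, Lgals3, Ube2c, Mt2, Gzmb and Ifitm3. Fgl2, which encodes a secreted immunoregulatory protein, read 0, 0 and 0.02 FPKM in naïve cells, 240.2, 247 and 232 without IL-2 and 211, 171 and 204 in IL-2. The Ifitm genes and Mt1 and Mt2 are families of close copies, and Fgl2 lies within another annotated gene, Ccdc146.

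The mRNA of mitosis stayed high for the 24 h without IL-2. All 24 mitosis genes ranked at least 40.4 points above naïve cells, with a median difference of 74.9 points, and 23 of the 24 kept the rank of CTL in IL-2. Mki67, which encodes the proliferation marker Ki-67, read 0.16, 0.16 and 0.19 FPKM in naïve cells, 103, 83.6 and 108 in IL-2 and 88.7, 93.4 and 83.4 without IL-2, so the 2 CTL groups overlapped. Top2a, which encodes topoisomerase IIα, read 1.45, 1.32 and 1.10 FPKM in naïve cells, 278, 230.2 and 265 in IL-2 and 228, 204 and 176 without IL-2. The log2 changes on withdrawal were -0.14 ± 0.10 (adjusted p = 0.241) and -0.35 ± 0.11 (adjusted p = 0.0175), neither past 2-fold. Plk1 alone fell by over 2-fold, with a log2 change of -1.08 ± 0.15 (adjusted p = 0.000132), and that count was 0 without CTL without IL-2 replicate 3, CTL in IL-2 replicate 2 or CTL in IL-2 replicate 3, and 2 without replicate 1 of either group.

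Genes of DNA replication were reduced but not at the naïve level. Of 29, 19 fell on withdrawal and none rose, and 19 still ranked higher than in naïve cells (25 on the scaled log2 measure) and none lower. Rrm2, which encodes a subunit of ribonucleotide reductase, read 0.85, 0.79 and 0.94 FPKM in naïve cells, 223, 231 and 239.6 in IL-2 and 92.6, 83.3 and 65.4 without IL-2. Cdc6, which loads the replicative helicase, fell by 1.72 ± 0.19 (adjusted p = 3.02e-05) to 7.78, 6.25 and 4.40 FPKM, against 0.13, 0.14 and 0.12 in naïve cells. Mcm2, a helicase subunit, fell by 1.62 ± 0.14 (adjusted p = 6.91e-06) to 44.2, 38.6 and 29.8 FPKM, above but close to the 25.1, 27.1 and 26.9 of naïve cells. The median log2 change of the replication genes was -1.21, against -0.38 for the mitosis genes.

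Ribosome biogenesis mRNA fell, in part below the naïve level. Of 35 genes for nucleolar factors, 28 fell on withdrawal and none rose, with a median log2 change of -1.51. Against naïve cells 11 ranked lower and 1 higher, and the median rank difference was -14.0 points without IL-2 but 4.22 in IL-2. Nolc1, a nucleolar protein gene, read 40.6, 40.3 and 48.8 FPKM in naïve cells, 85.6, 108 and 119.8 in IL-2 and 18.9, 20.4 and 14.4 without IL-2. Grwd1, a ribosome assembly factor gene, read 22.4, 21.4 and 19.7 FPKM in naïve cells, 27.1, 29.2 and 31.1 in IL-2 and 7.68, 8.21 and 4.55 without IL-2. For both, every deprived library lay below every library of the other groups. Ribosomal protein genes did not share this shift: of 78, none ranked higher or lower than in naïve cells (1 lower, Rps27, on the scaled log2 measure), and Rpl30 and Rpl34 fell on withdrawal.

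Sterol synthesis genes mostly returned to the naïve rank. Of 27 genes of this pathway and of lipid synthesis, 21 fell on withdrawal and none rose, and 13 of the 22 effector features stood at the naïve rank. Hmgcs1, an early enzyme of the pathway, read 16.8, 17.1 and 19.4 FPKM in naïve cells, 97.5, 97.2 and 126 in IL-2 and 21.9, 22.5 and 21.5 without IL-2. Fdps, which makes farnesyl diphosphate, read 17.1, 17.6 and 19.0 FPKM in naïve cells and 19.4, 20.7 and 15.5 without IL-2, which overlapped, against 152, 151 and 197 in IL-2. On the scaled log2 measure 8 of the 27 were still more than 2-fold higher than in naïve cells, and by rank 3.

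Glycolysis and amino acid transport came down in part. Of 22 glycolysis genes, 12 fell on withdrawal and 1 rose, where 13.2% and 13.6% of all shared genes did. Against naïve cells 5 ranked higher and 1 lower (10 and 1 on the scaled log2 measure), where 6.95% and 4.3% of all shared genes did by rank. The 1 lower lay near that share. Hk2, which encodes the inducible hexokinase, fell by 2.81 ± 0.17 (adjusted p = 9.06e-07), from 35.3, 33.5 and 37.5 FPKM to 6.00, 5.56 and 3.64, against 0.34, 0.23 and 0.56 in naïve cells. Ldha, which encodes the lactate dehydrogenase A chain, fell by 1.70 ± 0.10 (adjusted p = 8.08e-07) to 451, 448 and 373 FPKM, above the 264, 275 and 235 of naïve cells. The scaled log2 difference of Ldha from naïve cells, 0.82, was not called. Ldhb, the other chain, stayed low, with 2.02, 1.95 and 2.29 FPKM without IL-2 and 1.89, 2.16 and 1.84 in IL-2 against 7.58, 11.3 and 10.2 in naïve cells. Of 12 amino acid transporter genes, 6 fell and 1 rose, and Slc7a5, which carries large neutral amino acids, read 18.3, 20.2 and 13.9 FPKM without IL-2 and 16.5, 19.5 and 18.2 in naïve cells, which overlapped, against 132, 144 and 171 in IL-2.

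**Figure D4:**
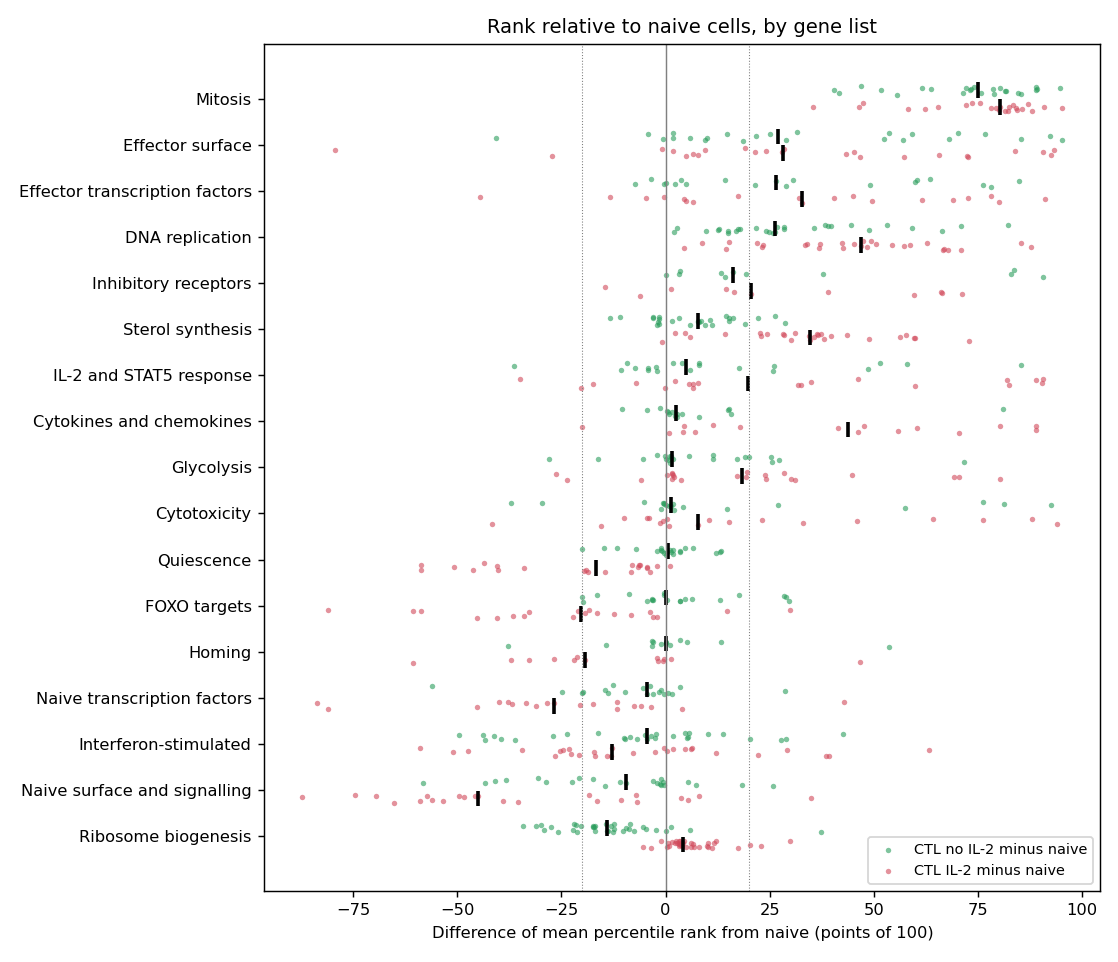
Difference in mean percentile rank from naïve cells (x axis, points of 100) for each gene (points) of 17 groups (y axis), for CTL without IL-2 (green) and CTL in IL-2 (red), with a black bar at the median and dotted lines at 20 points either way. The green median of the mitosis genes stands at 74.9, those of the quiescence and FOXO target genes at 0.63 and -0.01, and that of ribosome biogenesis at -14.0.

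Some genes that promote and some that oppose cell death changed. Of 27, 8 rose and 3 fell on withdrawal, where 13.6% and 13.2% of all shared genes did, so the falls lay near that share. Against naïve cells 6 ranked higher and none lower (12 and none on the scaled log2 measure), where 6.95% and 4.3% of all shared genes did by rank. Bcl2l11 read 11.6, 10.96 and 11.9 FPKM in naïve cells, 9.60, 8.88 and 9.81 in IL-2 and 23.1, 26.9 and 43.7 without IL-2, a rise of 1.66 ± 0.20 (adjusted p = 5.48e-05). Bbc3, which encodes the death-inducing protein PUMA, read 13.3, 12.8 and 14.9 FPKM in naïve cells, 9.35, 9.70 and 4.07 in IL-2 and 30.1, 33.8 and 24.7 without IL-2, a rise of 2.01 ± 0.29 (adjusted p = 0.000181). Bcl2l1, which encodes the survival protein BCL-XL, fell by 2.89 ± 0.12 (adjusted p = 2.24e-07) to 11.7, 14.1 and 10.7 FPKM, against 79.3, 101 and 90.6 in IL-2 and 6.37, 6.02 and 6.85 in naïve cells. Bcl2, the survival gene of naïve cells, read 32.8, 34.3 and 32.2 FPKM without IL-2, between 15.4, 14.0 and 13.6 in naïve cells and 69.4, 56.5 and 60.2 in IL-2.

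Some genes thus left the range of both reference states. By a rule set after the values were seen, 88 of the 10619 genes (0.829%) ranked at least 20 points above both naïve cells and CTL in IL-2 without overlap, and 95 (0.895%) ranked below both. Tbc1d4, which encodes a regulator of glucose transporter traffic and stood furthest above both, had mean FPKM of 3.04 in naïve cells, 1.04 in IL-2 and 30.8 without IL-2. Among the genes in the groups above, Ctla4, Rora, Il18r1, Ahnak, Ccng2, Bcl2l11, Bbc3 and Wdr12 stood above both. Below both stood Cd69, Prf1, Isg15, Usp18 and 11 of the 35 ribosome biogenesis genes (31.4%). Mettl1, which encodes a methyltransferase of transfer RNA, stood furthest below both, with mean FPKM of 24.3 in naïve cells, 24.9 in IL-2 and 2.88 without IL-2.

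Within the naïve-high genes of the activation comparison, the largest rises on withdrawal were those of Cd7, Gm5538, Pde2a, E130215H24Rik, Tcf7, 2610019F03Rik, Pou6f1, Lypd6b, Arl5c and Gm10640. Cd7, which encodes a T cell surface protein, read 98.5, 103 and 122 FPKM in naïve cells, 0.23, 0.18 and 0.24 in IL-2 and 25.8, 23.5 and 41.4 without IL-2, a rise of 6.54 ± 0.21 (adjusted p = 7.38e-08). Pde2a, which encodes a cyclic nucleotide phosphodiesterase, read 28.5, 27.8 and 31.3 FPKM in naïve cells and 22.7, 20.6 and 32.9 without IL-2, which overlapped, against 0.69, 0.48 and 0.30 in IL-2. The largest falls among activation-induced genes were those of Il10, Tgm2, Il24, Hbegf, Lif, Vash1, Tnfrsf9, Mycn, Gem and Fosl1. Tgm2, which encodes a transglutaminase, read 67.0, 77.2 and 198 FPKM in IL-2, 0.30, 0.21 and 0.89 without IL-2 and 0, 0.06 and 0.05 in naïve cells.

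Genes listed in only 1 of the tables could not be ranked together. In the CTL table, the most abundant of them without IL-2 was Ifitm1, with 512, 602 and 554 FPKM. Anxa1, which encodes annexin A1, followed with 107, 122 and 118 FPKM. Spp1, which encodes osteopontin, fell by 2.90 on withdrawal (adjusted p = 2.95e-07) and Cpa3, which encodes a carboxypeptidase, rose by 3.62 (adjusted p = 6.28e-06). In the other table, Dapl1, an abundant mRNA of naïve T cells, read 253, 299 and 292 FPKM in naïve cells, and Ccr9, which encodes a gut homing receptor, read 89.3, 89.3 and 89.5. Whether these 2 genes came back in deprived CTL was not tested, since each table keeps only genes that passed its own filter on low counts.

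The remaining groups differed little from naïve cells by rank. None of 14 general T cell genes, 15 genes of class I antigen presentation or 8 Gimap genes ranked higher or lower. The top of the rank scale hides larger differences, and on the scaled log2 measure 2 T cell genes were lower, 1 class I gene (H2-Q6, 1.06) higher and 1 Gimap gene (Gimap7, 1.98) higher. The 2 T cell genes encode the chains of CD8: Cd8a read 118, 115 and 134 FPKM without IL-2 and 117, 109.6 and 107 in IL-2 against 556, 546 and 529 in naïve cells, a difference of -2.05 on that measure, and Cd8b1 differed by -1.17. On withdrawal, Cd8b1, Cd3d and Cd3g rose among the T cell genes and Gimap1, Gimap6, Gimap7 and Gimap8 among the Gimap genes, which serve T cell survival. Of 25 lysosome and autophagy genes, 10 rose and none fell, where 13.6% and 13.2% of all shared genes did. By rank 1 was higher (Gabarapl1) and 1 lower (Ctsl) than in naïve cells, where 6.95% and 4.3% of all shared genes were. On the scaled log2 measure 4 were higher and 2 lower. The rank counts of this last group became 2 higher without naïve replicate 1 or CTL without IL-2 replicate 1, and 0 lower without replicate 2 of either group.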

How the data were processed

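RNA-seq libraries had been made by the submitters with the TruSeq Stranded mRNA kit and sequenced as paired ends. Per the methods and processing notes, reads were aligned to mm10 with STAR 2.5.2b, counted on RefSeq genes with Subread 1.5.1, filtered for low counts, scaled by TMM (edgeR), and deposited by the authors as FPKM over union exon length. The counting strand is not given in the sources used here, and the CTL table was taken to have been made in the same way. Total reads per library are not given in the sources used here, so precision rests on the spread over 3 libraries a group. For CTL in general the methods name 3 mice for 3 biological replicates, but whether this covers the withdrawal cultures is not stated, so p-values measure the spread between these samples, which may be technical.

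From the deposited FPKM, genes were joined by name and Entrez identifier, blanks were read as 0, and percentile ranks were taken within each library. Within each table, log2(FPKM + 0.1) of all groups was fitted with limma 3.58.1 (R 4.3.3) with an intensity trend, on all genes of that table, with Benjamini-Hochberg adjustment, and called at an adjusted p under 0.05 and more than 2-fold. No test was run across the 2 tables. Scripts were tested on simulated data. Figures were drawn with matplotlib 3.10.9 under Python 3.11.15.

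Members and gene groups were chosen with earlier results of these data known, so no group is independent evidence. Besides group members, the text names the 10 genes furthest in each direction by rank with a mean of at least 1 FPKM in the higher group, the 10 largest called rises of naïve-high and falls of activation-induced genes on withdrawal, and the 10 most abundant genes of each table alone. Some genes of these groups are counted but not reported here by name. Gene positions are from GENCODE vM 21 (GRCm38), in which 587 of 593 named genes had a single entry and 96 overlapped another.

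Deviations of same-numbered CTL libraries with and without IL-2 correlated at r = 0.123, 0.166 and 0.257 over 10263 genes, against -0.201 to 0.0912 for other numbers. The replicate numbers were taken as pairs. Naïve and activated cells of 1 number came from the same pool of mice, per the methods, although their deviations did not show it (r = -0.141, 0.226 and -0.181 over 10072 genes). Other numbers there gave -0.306 to 0.378. Since the check missed known pairs, it cannot establish the pairing of the CTL.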

Additional observations from a re-analysis of the deposited data

How the results depend on the processing

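Of the 593 named or listed genes, none reversed under any alternative to the withdrawal test. Lifting the 2-fold limit added 213 of them to the calls. Under the other alternatives, 33 lost their call under at least 1 and 28 gained one. Genes at low FPKM lost calls with a pseudocount of 1, among them Sox4, Il6st and Cxcl10, and Lag3 lost its call without CTL in IL-2 replicate 1 or 2.

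With the replicate number as a block, 1445 shared genes rose and 1403 fell on withdrawal, and 2508 rose and 2529 fell on activation. The pairing changed no call of a named gene and moved no count by over 1.5 times. Leaving out each library in turn gave 729 to 764 genes ranking higher than in naïve cells and 437 to 489 lower, and 1361 to 1523 rising and 1316 to 1501 falling on withdrawal.

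The rank counts followed the limit: 1550 higher and 1802 lower at 10 points, 417 and 132 at 30 points. After median scaling, at 2-fold, log2(FPKM + 0.1) gave 1572 higher and 803 lower, and log2(FPKM + 1) gave 1191 higher. Without a fold limit, 3730 genes rose and 3920 fell on withdrawal, and 4258 rose and 4322 fell on activation. With a pseudocount of 1, 25 naïve-high genes (1.19%) fell and 17 activation-induced genes (0.800%) rose on withdrawal, and with a mean of at least 1 FPKM, 28 (1.28%) of the latter did. A gap of 30 points left 438 naïve features, 148 at the naïve rank and 62 at the rank in IL-2, and 631 effector features, 96 at the naïve rank and 291 at that in IL-2. Counting only ranks within 5 points placed 270 naïve features at naïve, 589 between and 129 at CTL in IL-2, and 194 effector features at naïve and 553 between. Median scaling moved the median activation change of all genes from 0.01 to 0.13, and the withdrawal median from -0.00 to 0.02.

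Across groups and alternatives, 2821 counts stayed within 1.5 times the reported value and 221 did not, and 247 medians moved by little while 13 moved. Genes near the top or bottom of the rank scale cannot move far by rank, and values under about 1 FPKM depend on the pseudocount.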
